A study of Mus musculus with 12 samples.

Results

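Interleukins are secreted proteins through which leucocytes, epithelium and stroma signal to each other, and the genes described here are those whose name on the array, or current symbol, begins with Il followed by a digit. Of 41174 probes, 128 met this rule and stood for 85 genes out of 27666. They fell into 37 ligands, 39 receptor chains, 7 antagonists, decoy receptors or binding proteins, and 2 others. Most names were those of the files (121 probes). Another 3 probes were named by the current symbol of their accession (Il33, Il34 and Il20rb) and 4 by a synonym, for Il20rb, Il17rd and Il1bos. Some names are old: Il1f6, Il1f8 and Il1f9 are the agonists IL-36 alpha, beta and gamma, Il1f5 is their receptor antagonist, and the genes now called Cxcr1, Cxcr2, Ifnl3 and Ifnlr1 entered as Il8ra, Il8rb, Il28 and Il28ra.

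The study measured transcripts in whole uteri of 12 adult ovariectomized female mice (C57bl6/Jx129), 1 mouse per single-colour Agilent array and 3 mice in each of 4 groups. The groups were EAAE mice given estradiol (E2), EAAE mice given saline, wild-type (WT) mice given E2 and WT mice given saline, and every uterus was taken 2 h after the injection. Mice were 10 weeks of age or older by the labels, were rested for 10 to 14 days after ovariectomy, and received 100 ul each. EAAE mice carry, per the series title, an estrogen receptor alpha deficient in DNA binding. The labels give neither the E2 dose nor how many Esr1 alleles carry the change. All levels below are log2 intensities relative to the 75th percentile of their own array, so that most members lie below 0, and levels of different probes cannot be ranked against each other. The values in a list of 3 are those of mice 1, 2 and 3 of the group.

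Interleukin ligands act on receptors built from a ligand-specific chain and a chain shared by several cytokines, such as Il2rg, Il1rap, Il10rb, Il6st (gp130) or Il17ra. The IL-1, IL-18 and IL-36 systems are held in check by receptor antagonists (Il1rn, Il1f5), a decoy receptor (Il1r2) and a binding protein (Il18bp), and Il13ra2 acts as a decoy for IL-13. In the uterus, Il11 and its receptor are known for their part in decidualization in mice, Il15 for supporting uterine natural killer cells, and E2 for drawing leucocytes into the tissue. Estrogen receptor alpha can bind estrogen response elements directly or act at sites held by other factors such as AP-1, which is the distinction that the EAAE receptor addresses.

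Promoter stretches are shown for 2 members that rose after E2 in WT and 1 that fell, so that the sites named in that distinction can be read beside the values. The RefSeq promoter table (build GRCm38.p6) held 83 windows for 68 of the 85 genes, and the 250 bases before each annotated start were searched on both strands. The motifs were the estrogen response core motif GGTCA, the full palindromic estrogen response element, in which GGTCA and TGACC stand 3 bases apart, and the AP-1 site TGANTCA. In capitals are the core, in either orientation, and the AP-1 site, which did not overlap here. Il11 has 2 annotated starts, both on the minus strand.
Il11 upstream start (chr7:4782858-4783107): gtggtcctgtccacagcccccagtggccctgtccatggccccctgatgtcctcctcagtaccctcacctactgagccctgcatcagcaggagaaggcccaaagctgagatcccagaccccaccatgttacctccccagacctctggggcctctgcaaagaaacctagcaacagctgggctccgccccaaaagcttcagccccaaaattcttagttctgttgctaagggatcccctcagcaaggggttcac
Il11 downstream start (chr7:4778142-4778391): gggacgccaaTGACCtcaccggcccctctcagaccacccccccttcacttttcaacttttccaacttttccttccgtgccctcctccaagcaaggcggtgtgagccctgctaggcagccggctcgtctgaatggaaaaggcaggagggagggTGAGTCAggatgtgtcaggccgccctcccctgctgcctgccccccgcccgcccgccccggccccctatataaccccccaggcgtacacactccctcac
Il4ra (chr7:125552021-125552270, plus strand): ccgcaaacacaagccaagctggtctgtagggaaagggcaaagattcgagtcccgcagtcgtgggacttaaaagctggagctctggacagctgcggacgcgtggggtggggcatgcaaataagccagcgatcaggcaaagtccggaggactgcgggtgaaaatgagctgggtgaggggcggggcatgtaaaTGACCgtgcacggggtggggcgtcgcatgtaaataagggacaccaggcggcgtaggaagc
Il15ra upstream start (chr2:11705043-11705292, plus strand): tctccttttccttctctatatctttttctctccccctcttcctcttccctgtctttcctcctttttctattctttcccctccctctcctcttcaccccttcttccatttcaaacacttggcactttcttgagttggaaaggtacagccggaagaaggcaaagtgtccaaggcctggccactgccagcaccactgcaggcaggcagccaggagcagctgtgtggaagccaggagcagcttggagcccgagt
The downstream Il11 window held 1 core motif, beginning 240 bases before the start, and 1 AP-1 site, beginning 98 bases before it. The Il4ra window held 1 core motif, 60 bases before its start. Neither motif occurred in the upstream Il11 window or in the Il15ra window printed, while a second Il15ra start (chr2:11705462-11705711) had an AP-1 site 30 bases before it. No member window held the full palindrome, which 0.0639% of all 32851 windows of this length hold, against 35.2% for the core motif and 6.75% for the AP-1 site. Among members with a window, the core motif was present in 2 of 5 that rose and 3 of 14 that fell in WT, and the AP-1 site in 1 of 5 and 3 of 14. Of tested members without a call in WT, 12 of 26 had the core motif and 5 of 26 the AP-1 site. Such counts take a gene's windows together, so they cannot be set against the percentages, which are per window. All matches are of letters and were not tested for binding. Il17ra, Il15, Il34 and Il7 had no entry.

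A probe was called well above background where the scanner software marked it so, and 58 of the 85 genes carried the mark throughout 1 or more groups of 3 arrays and could be tested. Detection differed by role: 28 of 39 receptor chains were well above background on all 12 arrays, against 9 of 37 ligands and 1 of 7 antagonists. Ligands not well above background on any array were Il1a, Il1f9, Il3, Il5, Il6, Il9, Il10, Il17a, Il20, Il21, Il22 and Il23a, while Il12b, Il19, Il25 and Il31 were so marked on some arrays but did not pass. Of the receptor chains, Il5ra, Il9r, Il18rap and Il23r were never above background and Cxcr1, Cxcr2, Il12rb2 and Il1rapl2 did not pass. The remaining 3 genes without a test, never above background, were Il1f10, Il22ra2 and the antisense transcript Il1bos. For these 27 genes only a bound is known, so no change can be read for Il6 or Il10. Of the 58 tested genes, 40 passed the threshold in at least 1 of 5 comparisons.

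Across the whole series, 63.38 to 73.59% of probes per array were well above background, and Pearson correlations between arrays of the same group ran from 0.9826 to 0.9929 across probes. Esr1 was well above background on every array, at 3.13 ± 0.12 in EAAE E2, 3.35 ± 0.12 in EAAE saline, 2.71 ± 0.05 in WT E2 and 2.96 ± 0.10 in WT saline (SD, n = 3). A dimmer Esr1 probe, also above background on every array, gave -2.59 ± 0.32, -2.53 ± 0.08, -2.09 ± 0.09 and -2.23 ± 0.06 in the same order. The probes thus disagree in direction between genotypes, and neither tests a change in DNA binding. All 7 epithelium, 7 stroma and 5 smooth muscle markers passed the same detection filter. The means over 10 macrophage markers were highest on EAAE E2 1 (1.53) and WT saline 1 (1.51) and lay between -0.13 and 0.80 on the others. Fewer cells of a type and less RNA per cell cannot be told apart in whole tissue.

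In the WT uterus, 2 h of E2 raised 6 and lowered 19 of the 58 tested members. The rises were Il17ra, Il11, Il17c, Il31ra, Il4ra and Il20rb, and the largest falls among members measured in both groups were Il33, Il15ra, Il7, Ifnlr1 and Il15. Of all 19301 genes tested, 49.4% passed in this comparison (19.5% higher, 29.9% lower), so the 43.1% of members that changed is near the background. The median log2 difference was -0.40 over the members and -0.15 over all genes, and the groups did not overlap for 35 of the 58 members, against 64.6% of all genes. By role, 2 ligands rose and 7 fell of 21, 4 receptor chains rose and 9 fell of 31, and 2 of 5 antagonists fell. Scaling changed this split: 8 rose and 14 fell with the array median, and 9 and 16 with quantile scaling, and the median of all genes moved from -0.148 to -0.011 with the array median. All tests are limma's with Benjamini-Hochberg adjustment over the 19301 genes.

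Il11, a gp130 cytokine, was among the ligands that rose. It lay at -1.09, -0.62 and -1.32 in WT E2, against -4.38, -4.18 and -4.10 in WT saline. The groups were far apart, a 9.22-fold rise (log2 3.20, SE 0.26, adjusted p = 5.39e-06). Its probe lies at chromosome 7, 4347807 to 4347866 (mm7, the build of the files, as for all probe positions below). Il17c, an epithelial cytokine of the IL-17 family, had -4.95, -4.53 and -5.30 in WT E2, against -6.72, -7.22 and -7.25 in WT saline. It was well above background on the 3 WT E2 arrays and on no other array of the series. The rise is therefore a bound, at least 1.9-fold (adjusted p = 1.43e-05). Only the WT E2 arrays carried Il17c past the filter, so this call is not independent of the filter. With the filter on all 12 arrays Il17c was not tested, and 5 members rose in WT. For such bounds each array of the dim group takes its detection floor, the lowest probe marked well above background there, or the probe itself where that is higher, and the bright group's mean is set against these.

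Il33, an alarmin of stroma and epithelium, showed the largest fall of the ligands. Its levels were -1.47, -1.51 and -2.31 in WT E2, against 0.56, -0.42 and -0.37 in WT saline, with no overlap (log2 -1.69, SE 0.41, adjusted p = 0.00606). Il7, a survival factor of lymphocytes, had -5.37, -5.92 and -5.48 in WT E2, against -3.99, -4.35 and -4.14 in WT saline, and fell 2.69-fold (log2 -1.43, SE 0.14, adjusted p = 2.31e-05). It was still well above background on 2 of the 3 WT E2 arrays. Il34, a second ligand of the macrophage receptor Csf1r, gave -1.77, -2.25 and -2.07 in WT E2, against -0.58, -0.99 and -0.79 in WT saline (log2 -1.24, SE 0.16, adjusted p = 9.52e-05). In both, every E2 mouse lay below every saline mouse.

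Il15 was less settled. It lay at -2.72, -3.79 and -1.45 in WT E2, against -1.44, -0.91 and -1.67 in WT saline, so that WT E2 3 lay within the saline range (log2 -1.32, SE 0.45, adjusted p = 0.0337). Leaving out WT E2 1 (adjusted p = 0.0758), WT E2 2 (0.102, with a difference of -0.75), WT saline 1 (0.0647) or WT saline 2 (0.110) ended the call. A second Il15 probe gave -0.60 (adjusted p = 0.190). Il18, a cytokine stored as a precursor and released by caspase 1, was at -1.47, -1.68 and -1.70 in WT E2, against -0.95, -1.27 and -0.98 in WT saline (log2 -0.55, adjusted p = 0.00608), and its groups did not overlap.

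The IL-36 agonists fell too. Il1f8 had -4.14, -4.27 and -4.02 in WT E2, against -3.53, -3.75 and -3.77 in WT saline (log2 -0.46, SE 0.11, adjusted p = 0.00534). Its call was lost with normexp background correction and with quantile scaling. Il1f6 had -5.58, -5.49 and -5.80 in WT E2, on no array well above background, against -4.18, -5.33 and -4.69 in WT saline. That is a fall of at least 1.7-fold (adjusted p = 0.0384), and it ended when WT E2 1 (adjusted p = 0.0718), WT E2 2 (0.0660), WT E2 3 (0.107), WT saline 1 (0.143), WT saline 3 (0.0888) or EAAE saline 1 (0.0513) was left out.

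Ligands that did not pass in WT included Il16, which draws lymphocytes, at 0.51, 0.21 and 0.39 in WT E2 against 0.59, 0.58 and 0.62 in WT saline (log2 -0.23, adjusted p = 0.0839). Il17d stayed between 3.04 and 3.38 on all 12 arrays, with a log2 difference of -0.01 (SE 0.11). Il1b, the inflammasome cytokine, had -4.11, -4.02 and -4.42 in WT E2 and -2.77, -4.80 and -4.54 in WT saline (log2 -0.15, SE 0.64), and WT saline 1 stood far above its group. Il2, Il4, Il12a, Il13, Il17b, Il17f, Il24, Il27 and Ifnl3 also missed the threshold, with differences of -0.64 to 0.75.

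**Figure D1:**
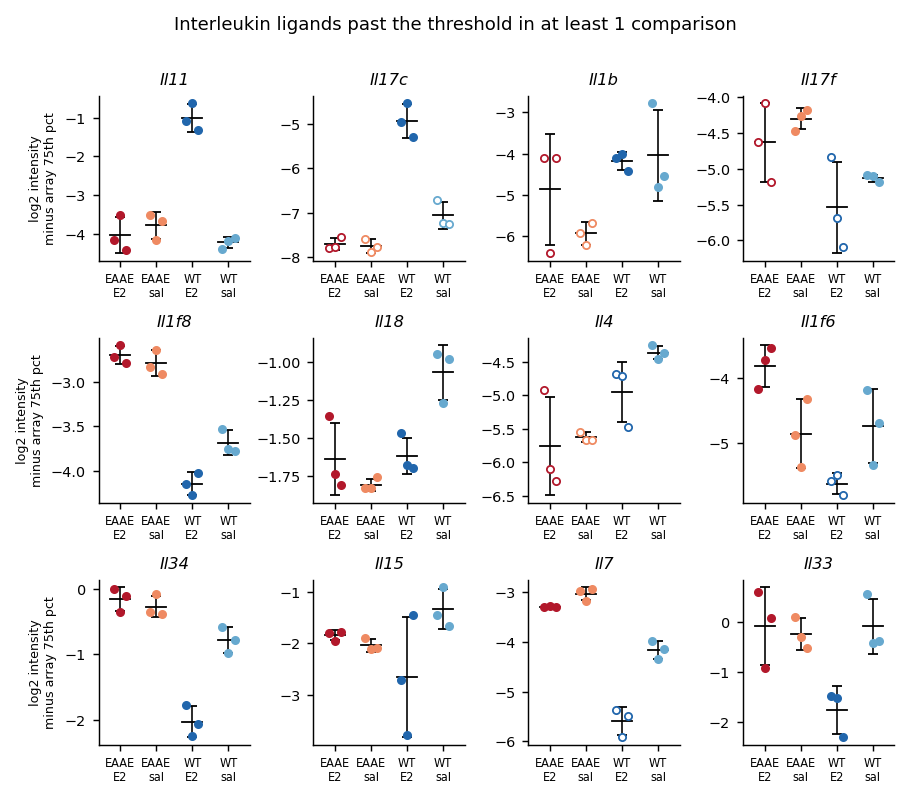
Log2 intensity minus the array's 75th percentile (y axis, own scale in each panel) of the 12 ligands past the threshold in at least 1 comparison, for EAAE E2, EAAE saline, WT E2 and WT saline, with each point 1 mouse and lines and bars the mean and SD (n = 3). Open points mark groups not well above background on all 3 arrays; Il11 and Il17c stand apart in WT E2 on the high side, and Il33, Il34 and Il7 on the low side.

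Among the receptor chains, Il17ra changed most. This common chain of the IL-17 receptors lay at 2.75, 3.00 and 2.85 in WT E2, against -0.72, -0.49 and -1.01 in WT saline, a 12.2-fold rise (log2 3.61, SE 0.16, adjusted p = 1.16e-07). Its probe lies at chromosome 6, 120508163 to 120508222. A second Il17ra probe gave 3.59 (adjusted p = 8.69e-08), so that both probes of the gene rose alike. Of that family, Il17rc differed by -0.15, Il17re by -0.04 and Il17rb by -0.14, none past the threshold, and Il17rd is taken up below. For Il17re, a dimmer probe that was above background on no WT E2 array was at least 1.7-fold lower (adjusted p = 0.00384), so its probes disagree.

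Il4ra, the chain through which IL-4 and IL-13 both signal, had 3.81, 3.88 and 3.77 in WT E2, against 2.84, 2.73 and 3.05 in WT saline. It rose 1.93-fold (log2 0.95, SE 0.13, adjusted p = 0.00023), with every E2 mouse above every saline mouse. Il31ra, the IL-31 receptor chain, was at -3.01, -3.26 and -3.59 in WT E2, against -4.23, -4.56 and -4.53 in WT saline (log2 1.15, SE 0.21, adjusted p = 0.00114). Il20rb, shared by the receptors for IL-19, IL-20 and IL-24, was at 2.41, 2.28 and 2.41 in WT E2, against 1.64, 1.84 and 1.67 in WT saline (log2 0.65, adjusted p = 0.00327). A second Il20rb probe differed by -0.02 (adjusted p = 0.917), so this rise rests on 1 probe.

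The falls among receptor chains were led by Il15ra, which presents IL-15 to neighbouring cells. It had -2.29, -2.59 and -2.26 in WT E2, against -0.90, -0.84 and -0.87 in WT saline, and fell 2.85-fold (log2 -1.51, SE 0.13, adjusted p = 1.03e-05), with a second probe at -1.60 (adjusted p = 2.95e-05). Ifnlr1, the specific chain of the receptor for lambda interferons, had -0.41, -0.66 and -0.25 in WT E2, against 0.82, 1.15 and 0.97 in WT saline (log2 -1.42, SE 0.13, adjusted p = 1.04e-05). Its partner Il10rb, shared with the IL-10 and IL-22 receptors, had 1.85, 1.66 and 1.79 in WT E2, against 2.73, 2.54 and 2.74 in WT saline (log2 -0.90, SE 0.10, adjusted p = 5.64e-05). A second Il10rb probe, above background on no WT E2 array, was at least 1.3-fold lower (adjusted p = 0.00199). By the brighter probe both chains of the lambda interferon receptor fell, each with no overlap between groups.

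Il1rl2, Il1r1 and Il18r1, of the IL-1 receptor family, fell in WT. Il1rl2, the IL-36 receptor, was at -0.49, -0.85 and -0.68 in WT E2, against 0.54, 0.69 and 0.44 in WT saline, and fell 2.34-fold (log2 -1.23, SE 0.13, adjusted p = 4.07e-05). Il1r1, the signalling IL-1 receptor, was at 0.58, 0.61 and 0.82 in WT E2, against 1.32, 1.15 and 1.08 in WT saline (log2 -0.52, SE 0.11, adjusted p = 0.00343). Il18r1, the IL-18 receptor, was at -1.05, -1.16 and -1.20 in WT E2, against -0.08, -0.48 and -0.85 in WT saline (log2 -0.67, SE 0.18, adjusted p = 0.0112). These 3 groups of E2 mice lay below all of their saline counterparts.

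Il1rap, the accessory chain shared by Il1r1 and Il1rl2, averaged -2.34 ± 0.17 in WT E2, against -1.96 ± 0.06 in WT saline (SD, n = 3). The log2 difference was -0.38 (adjusted p = 0.0110), while a second probe gave -0.14 (adjusted p = 0.493). With the array median, Il1rap no longer passed (-0.24, adjusted p = 0.0887). Il1rl1, the receptor of IL-33, was at -0.74, -0.80 and -1.25 in WT E2 and -0.58, -0.64 and -0.49 in WT saline, and did not pass (log2 -0.36, SE 0.35). Il13ra1, which pairs with Il4ra, averaged -1.98 ± 0.04 in WT E2, against -1.52 ± 0.23 in WT saline (log2 -0.46, adjusted p = 0.0143), a call lost without WT saline 1 (-0.34, adjusted p = 0.0554) and with the array median (-0.32, adjusted p = 0.0604).

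For Il17rd, a receptor-like inhibitor of fibroblast growth factor signalling, the probe that stood for the gene carries that symbol only through a synonym. It fell by 0.74 on the log2 scale (adjusted p = 8.9e-05), with 1.55, 1.40 and 1.49 in WT E2, against 2.08, 2.38 and 2.21 in WT saline. The 2 probes that the files name Il17rd gave 0.27 (adjusted p = 0.566) and 0.08 (adjusted p = 0.753), so whether Il17rd itself fell is uncertain.

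Several chains that are central to cytokine signalling did not pass in WT. Il6st (gp130) was at 3.84, 4.03 and 3.86 in WT E2 and 3.73, 3.86 and 3.98 in WT saline (log2 0.06, SE 0.10), and Il6ra at -2.22, -2.28 and -2.23 in WT E2 and -1.76, -2.06 and -2.48 in WT saline (log2 -0.14, SE 0.18). Il11ra1, the IL-11 receptor, was at 5.34, 5.54 and 5.38 in WT E2 and 5.12, 5.11 and 5.18 in WT saline. These groups did not overlap, yet the difference missed the threshold (log2 0.28, SE 0.12, adjusted p = 0.0803), while a second probe passed (0.33, adjusted p = 0.0320). Mice carry a near-identical copy, Il11ra2, which these probes may not separate. The other chains without a call, among them Il2rb, Il2rg, Il3ra, Il7r, Il10ra, Il12rb1, Il20ra, Il21r, Il22ra1, Il27ra and Il2ra, differed by -0.96 to 0.75.

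**Figure D2:**
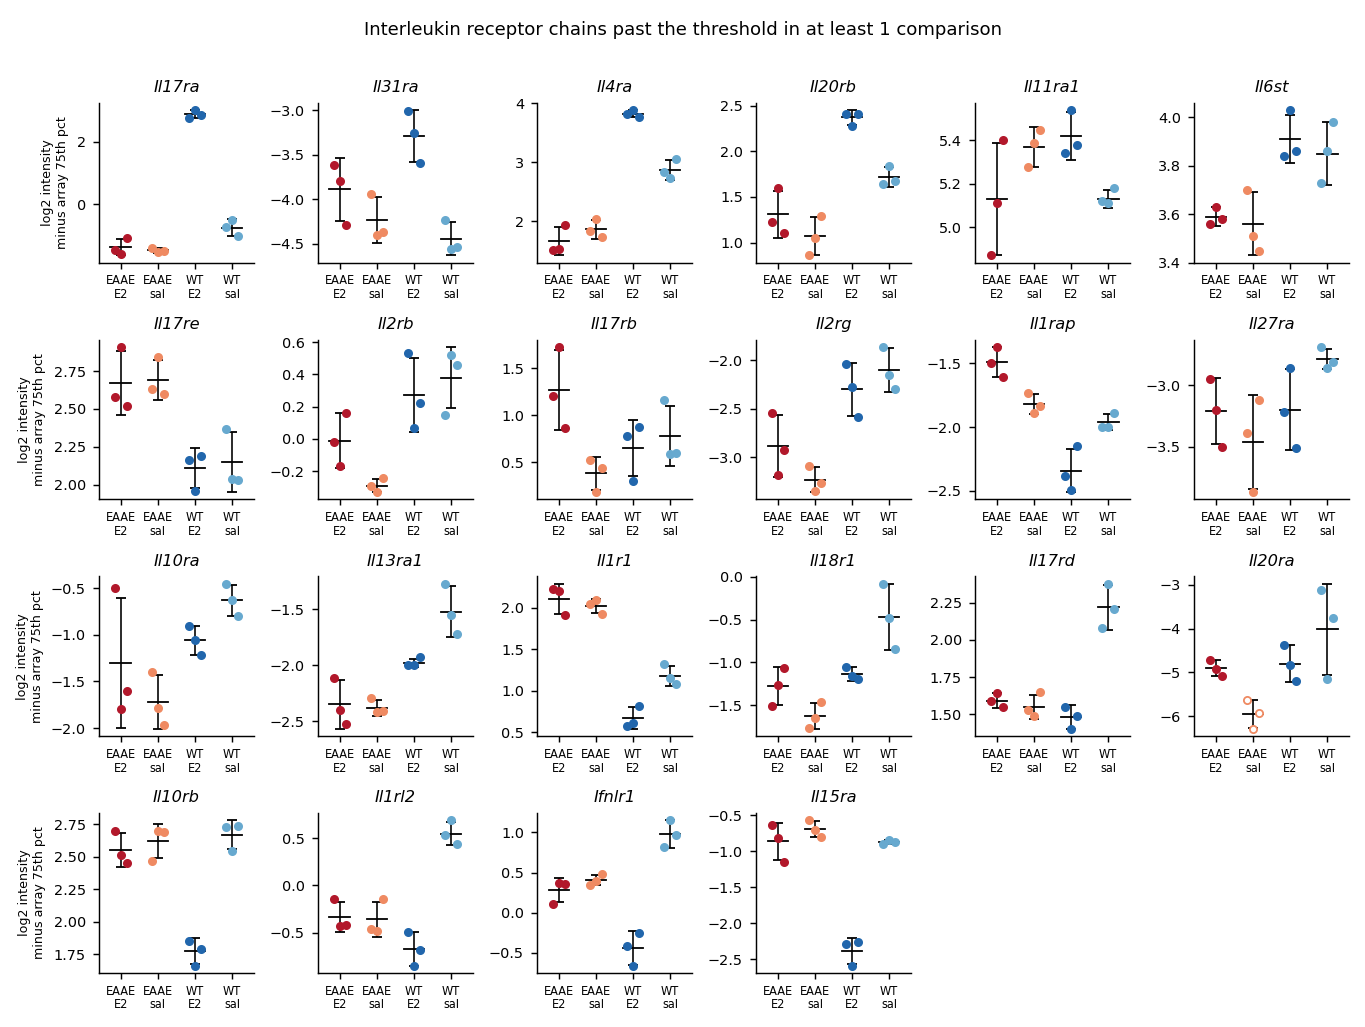
Log2 intensity minus the array's 75th percentile (y axis, own scale in each panel) of the 22 receptor chains past the threshold in at least 1 comparison, for EAAE E2, EAAE saline, WT E2 and WT saline, with each point 1 mouse and lines and bars the mean and SD (n = 3). Open points mark groups not well above background on all 3 arrays; Il17ra and Il4ra are highest in WT E2, and Il15ra, Ifnlr1 and Il10rb lowest there.

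Of the antagonists, Il13ra2 fell, with -6.17, -5.78 and -5.87 in WT E2, never well above background, against -4.64, -4.91 and -4.89 in WT saline (at least 1.6-fold, adjusted p = 0.00927). The Il13ra2 call was lost with normexp background correction, with quantile scaling and with slide and position in the fit. Il1f5, the IL-36 receptor antagonist, had -4.91, -6.79 and -6.01 in WT E2, against -4.43, -4.68 and -4.96 in WT saline (log2 -1.21, SE 0.45, adjusted p = 0.0455). Only 1 WT E2 array was above background for it and the groups overlapped. Its call ended in 9 of the 12 fits that left out 1 array, namely those without WT saline 1, 2 or 3, WT E2 2 or 3, EAAE saline 1, 2 or 3, or EAAE E2 3, with adjusted p of 0.0553 to 0.174, and without WT E2 2 its difference was -0.77.

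The IL-1 decoy Il1r2 was at -3.19, -2.95 and -4.14 in WT E2 and -4.07, -4.96 and -4.56 in WT saline, just short of the threshold (log2 1.10, SE 0.42, adjusted p = 0.0502). The IL-1 receptor antagonist Il1rn was at -5.11, -5.10 and -6.03 in WT E2 and -3.07, -4.34 and -4.44 in WT saline (log2 -1.47, SE 0.93, adjusted p = 0.219). Il18bp did not pass (log2 -0.04, SE 0.17), with -2.41, -2.90 and -2.70 in WT E2 and -2.51, -2.56 and -2.81 in WT saline. Il4i1, an amino acid oxidase that is no interleukin, fell by 0.77 on the log2 scale (SE 0.21, adjusted p = 0.0122), with -2.29, -2.64 and -2.66 in WT E2, against -1.51, -2.08 and -1.69 in WT saline.

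Stroma and adipocyte markers fell in the same comparison, and their part in these results was not tested. Of 7 stroma markers 5 were lower in WT E2 (median log2 difference -0.97), with array means of 2.92 to 3.03 in WT E2 and 3.82 to 3.92 in WT saline. All 5 adipocyte markers were lower (median -3.18), with array means of -2.90 to 0.14 in WT E2 and 0.34 to 3.26 in WT saline. Of 10 macrophage markers 2 were lower, and the medians were -0.39 over 5 pan-leucocyte and -0.33 over 12 T and NK cell markers. Of 5 endothelium markers 3 were lower (median -0.30; array means 0.72 to 0.84 in WT E2 and 1.05 to 1.11 in WT saline). All 3 tested ovary markers were lower too (median -0.88; -2.63 to -2.40 in WT E2 and -1.45 to -1.14 in WT saline), while Cyp11a1 was above background on no array.

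**Figure D3:**
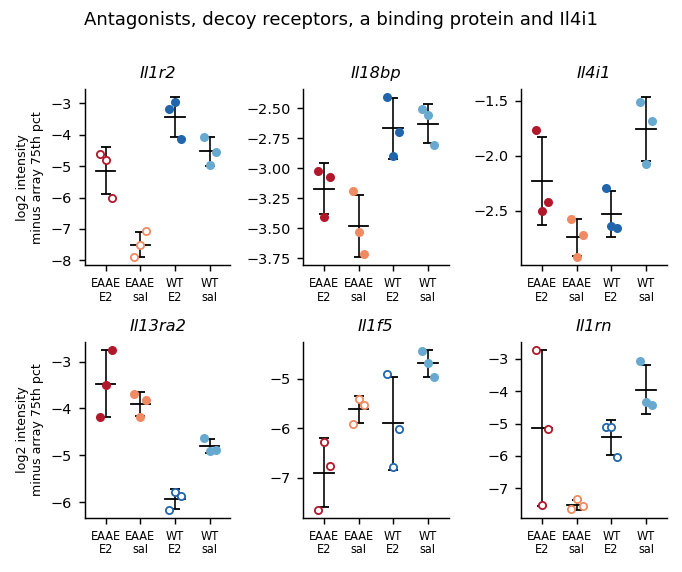
Log2 intensity minus the array's 75th percentile (y axis, own scale in each panel) of the 5 tested antagonists, decoys and binding proteins and of Il4i1, for EAAE E2, EAAE saline, WT E2 and WT saline, with each point 1 mouse and lines and bars the mean and SD (n = 3). Open points mark groups not well above background on all 3 arrays; Il1r2 and Il1rn are lowest in EAAE saline and Il13ra2 in WT E2.

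In the EAAE uterus, E2 changed 1 of the 58 members, Il1r2, where 1.4% of all genes passed (0.689% higher, 0.715% lower). The median difference over the members was 0.09, against 0.03 over all genes. Il1r2 was at -4.61, -4.81 and -6.00 in EAAE E2, of which the first 2 were well above background, against -7.88, -7.52 and -7.08 in EAAE saline, none of them above it. The rise was at least 1.4-fold (adjusted p = 0.0297). It was lost without EAAE saline 1 (adjusted p = 0.0897), EAAE saline 2 (0.0784), EAAE saline 3 (0.0559), EAAE E2 1 (0.0819) or EAAE E2 2 (0.0880), and under 5 other settings given in the closing section.

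The members that rose most in WT showed no such rise in EAAE. Il17ra was at -1.46, -1.57 and -1.06 in EAAE E2 and -1.38, -1.51 and -1.50 in EAAE saline (log2 0.10, SE 0.16). Il11 was at -4.17, -3.51 and -4.41 in EAAE E2 and -3.51, -4.16 and -3.67 in EAAE saline (log2 -0.25, SE 0.26), with the groups overlapping. Il4ra was at 1.52, 1.53 and 1.94 in EAAE E2 and 1.83, 2.03 and 1.73 in EAAE saline (log2 -0.20, SE 0.13).

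The members that fell most in WT likewise missed the threshold. Il33 was at 0.61, -0.92 and 0.08 in EAAE E2 and 0.11, -0.30 and -0.52 in EAAE saline (log2 0.16, SE 0.41), and Il15ra at -0.64, -0.81 and -1.15 in EAAE E2 and -0.57, -0.70 and -0.80 in EAAE saline (log2 -0.17, SE 0.13). Il7 was at -3.29, -3.27 and -3.30 in EAAE E2 and -2.97, -3.17 and -2.93 in EAAE saline. That is a small shift without overlap (log2 -0.26, SE 0.14, adjusted p = 0.403), of a kind 18.5% of all genes showed and 9 of the 58 members. Among other members, Il17rb was higher without overlap, at 1.21, 1.73 and 0.86 in EAAE E2, against 0.52, 0.18 and 0.44 in EAAE saline (log2 0.89, SE 0.24, adjusted p = 0.109).

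The remaining ligands had the following levels in EAAE. Il15 was at -1.80, -1.95 and -1.78 in EAAE E2 and -1.90, -2.12 and -2.10 in EAAE saline (log2 0.20, SE 0.45), and Il16 at 0.44, 0.20 and 0.48 in EAAE E2 and 0.30, 0.37 and 0.28 in EAAE saline (log2 0.06, SE 0.10). Il17c was at -7.79, -7.77 and -7.55 in EAAE E2 and -7.58, -7.89 and -7.78 in EAAE saline, with no array above background. Il1f6 was at -4.16, -3.72 and -3.54 in EAAE E2 and -4.87, -5.37 and -4.32 in EAAE saline (log2 1.05, SE 0.31), with EAAE E2 above EAAE saline on every array, yet short of the threshold. Il34 was at 0.00, -0.36 and -0.12 in EAAE E2 and -0.35, -0.09 and -0.39 in EAAE saline (log2 0.12, SE 0.16), Il18 at -1.36, -1.74 and -1.81 in EAAE E2 and -1.83, -1.83 and -1.76 in EAAE saline (log2 0.17, SE 0.13) and Il1f8 at -2.72, -2.59 and -2.79 in EAAE E2 and -2.83, -2.65 and -2.91 in EAAE saline (log2 0.09, SE 0.11), and in these 3 the groups lay close together. Il1b was at -4.10, -6.42 and -4.10 in EAAE E2 and -5.93, -6.22 and -5.69 in EAAE saline (log2 1.07, SE 0.64), with 1 EAAE E2 mouse below the saline range, and Il17f was at -4.63, -4.08 and -5.18 in EAAE E2 and -4.47, -4.26 and -4.18 in EAAE saline (log2 -0.33, SE 0.32).

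The receptor chains that fell in WT gave small differences in EAAE. Ifnlr1 was at 0.11, 0.37 and 0.36 in EAAE E2 and 0.35, 0.39 and 0.48 in EAAE saline (log2 -0.12, SE 0.13) and Il10rb at 2.70, 2.51 and 2.45 in EAAE E2 and 2.47, 2.70 and 2.69 in EAAE saline (log2 -0.07, SE 0.10). Il1rl2 was at -0.14, -0.43 and -0.42 in EAAE E2 and -0.46, -0.48 and -0.14 in EAAE saline (log2 0.03, SE 0.13) and Il1r1 at 2.22, 2.20 and 1.91 in EAAE E2 and 2.05, 2.09 and 1.93 in EAAE saline (log2 0.09, SE 0.11). Il18r1 was at -1.51, -1.27 and -1.07 in EAAE E2 and -1.77, -1.65 and -1.47 in EAAE saline (log2 0.35, SE 0.18) and Il1rap at -1.50, -1.37 and -1.61 in EAAE E2 and -1.73, -1.89 and -1.83 in EAAE saline (log2 0.32, SE 0.10), and only in Il1rap did every EAAE E2 mouse lie above every saline mouse among these 6. Il13ra1 was at -2.11, -2.40 and -2.53 in EAAE E2 and -2.29, -2.42 and -2.41 in EAAE saline (log2 0.03, SE 0.13) and the probe standing for Il17rd at 1.59, 1.64 and 1.55 in EAAE E2 and 1.53, 1.49 and 1.65 in EAAE saline (log2 0.04, SE 0.09). None of these 8 passed.

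Of the chains that rose in WT, Il31ra was at -3.61, -3.79 and -4.29 in EAAE E2 and -3.94, -4.40 and -4.37 in EAAE saline (log2 0.34, SE 0.21) and Il20rb at 1.23, 1.60 and 1.11 in EAAE E2 and 0.87, 1.05 and 1.29 in EAAE saline (log2 0.25, SE 0.14). The IL-11 receptor Il11ra1 was at 4.87, 5.11 and 5.40 in EAAE E2 and 5.28, 5.39 and 5.45 in EAAE saline (log2 -0.25, SE 0.12) and gp130, Il6st, at 3.56, 3.63 and 3.58 in EAAE E2 and 3.70, 3.51 and 3.45 in EAAE saline (log2 0.04, SE 0.10). Il6ra was at -2.65, -2.14 and -2.18 in EAAE E2 and -1.99, -2.18 and -2.10 in EAAE saline (log2 -0.24, SE 0.18) and the IL-33 receptor Il1rl1 at -0.32, -1.70 and -1.84 in EAAE E2 and -0.87, -1.38 and -1.50 in EAAE saline (log2 -0.04, SE 0.35). Among the leucocyte chains, Il2rg was at -2.54, -3.18 and -2.92 in EAAE E2 and -3.09, -3.35 and -3.26 in EAAE saline (log2 0.35, SE 0.19), Il2rb at -0.02, -0.17 and 0.16 in EAAE E2 and -0.29, -0.33 and -0.24 in EAAE saline (log2 0.28, SE 0.14), Il10ra at -0.50, -1.80 and -1.60 in EAAE E2 and -1.40, -1.78 and -1.97 in EAAE saline (log2 0.42, SE 0.29) and Il27ra at -2.95, -3.20 and -3.50 in EAAE E2 and -3.39, -3.87 and -3.12 in EAAE saline (log2 0.24, SE 0.22). Il20ra was at -4.71, -4.93 and -5.07 in EAAE E2 and -5.64, -6.29 and -5.93 in EAAE saline (log2 1.05, SE 0.43), above background on every EAAE E2 array and on no EAAE saline array.

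Of the antagonists, Il1rn varied widely between EAAE E2 mice. It was at -2.73, -7.52 and -5.18 in EAAE E2 and -7.64, -7.33 and -7.56 in EAAE saline (log2 2.37, SE 0.93), so that EAAE E2 2 lay within the saline range, and 1 EAAE E2 array was well above background. Il1f5 was at -7.65, -6.27 and -6.77 in EAAE E2 and -5.92, -5.40 and -5.53 in EAAE saline (log2 -1.28, SE 0.45), Il13ra2 at -4.18, -3.49 and -2.75 in EAAE E2 and -3.69, -4.19 and -3.82 in EAAE saline (log2 0.43, SE 0.29) and Il18bp at -3.02, -3.41 and -3.07 in EAAE E2 and -3.19, -3.53 and -3.71 in EAAE saline (log2 0.31, SE 0.17). The ligand Il4 was at -4.92, -6.09 and -6.27 in EAAE E2 and -5.54, -5.66 and -5.66 in EAAE saline (log2 -0.14, SE 0.32) and Il4i1 at -1.77, -2.50 and -2.42 in EAAE E2 and -2.57, -2.92 and -2.72 in EAAE saline (log2 0.50, SE 0.21).

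Tested directly, the response differed between genotypes for 24 of 58 members, 19 with a higher and 5 with a lower value for EAAE minus WT, where 37.5% of all genes passed (22.7% higher, 14.8% lower). The 5 lower were Il17ra, Il11, Il17c, Il4ra and Il11ra1. Il17ra responded by 0.10 in EAAE and 3.61 in WT, a difference of -3.50 (SE 0.22, adjusted p = 3.53e-06), and Il11 by -0.25 in EAAE and 3.20 in WT, a difference of -3.45 (SE 0.36, adjusted p = 7.48e-05). Il4ra responded by -0.20 in EAAE and 0.95 in WT (difference -1.15, SE 0.19, adjusted p = 0.00113). Il11ra1, whose response passed in neither genotype, gave -0.25 in EAAE and 0.28 in WT (difference -0.53, adjusted p = 0.0356), a call that ended without any of WT saline 1 to 3, WT E2 2 or 3, EAAE saline 2 or 3, or EAAE E2 1 or 2 (adjusted p of 0.0552 to 0.0859). A second Il11ra1 probe gave -0.50 (adjusted p = 0.0300).

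On the higher side, 16 members fell in WT and gave -0.26 to 1.05 in EAAE, none of these past the threshold there. They were the ligands Il33, Il34, Il7, Il18, Il1f6 and Il1f8, the decoy Il13ra2 and Il4i1. The chains among them were Il15ra, Ifnlr1, Il1rl2, Il18r1, Il10rb, Il17rd, Il1rap and Il1r1, and all differences were 0.55 to 1.93. For Il17rd this is the probe named through a synonym. The 2 probes that the files name Il17rd gave -0.43 (adjusted p = 0.536) and -0.03 (adjusted p = 0.946). Second probes of Il1rap (0.39, adjusted p = 0.202) and Il10rb (0.95, adjusted p = 0.121) missed the threshold too, while that of Il15ra passed (1.42, adjusted p = 0.00117). The Il1f8 difference was lost with normexp background correction and with array median or quantile scaling. The Il13ra2 difference was lost with normexp, with quantile scaling and with slide and position in the fit. The Il33 difference (1.84, adjusted p = 0.0290) ended when WT saline 1 (adjusted p = 0.0639), WT E2 3 (0.0657), EAAE saline 2 (0.0544), EAAE saline 3 (0.0640), EAAE E2 1 (0.0572) or EAAE E2 3 (0.0565) was left out. The other 3, Il1rn, Il20ra and Il17rb, passed in neither genotype alone. Il17rb gave 0.89 in EAAE and -0.14 in WT (difference 1.02, adjusted p = 0.0377), and ended without WT saline 1, WT E2 2, EAAE saline 2, EAAE saline 3, EAAE E2 1 or EAAE E2 2 (adjusted p of 0.0553 to 0.0890), and a second probe differed by 0.48 (adjusted p = 0.328).

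The 5 members that changed in WT, Il13ra1, Il15, Il1f5, Il20rb and Il31ra, had no call for the difference, which does not show that they respond alike. A second Il13ra1 probe did pass, at 0.49 (adjusted p = 0.0363). Il31ra gave 0.34 in EAAE and 1.15 in WT (difference -0.81, SE 0.30, adjusted p = 0.0538). Il1f5 gave -1.28 in EAAE and -1.21 in WT (difference -0.07, SE 0.63), near background in both. Il20rb gave 0.25 in EAAE and 0.65 in WT (difference -0.40, SE 0.20, adjusted p = 0.135).

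**Figure D4:**
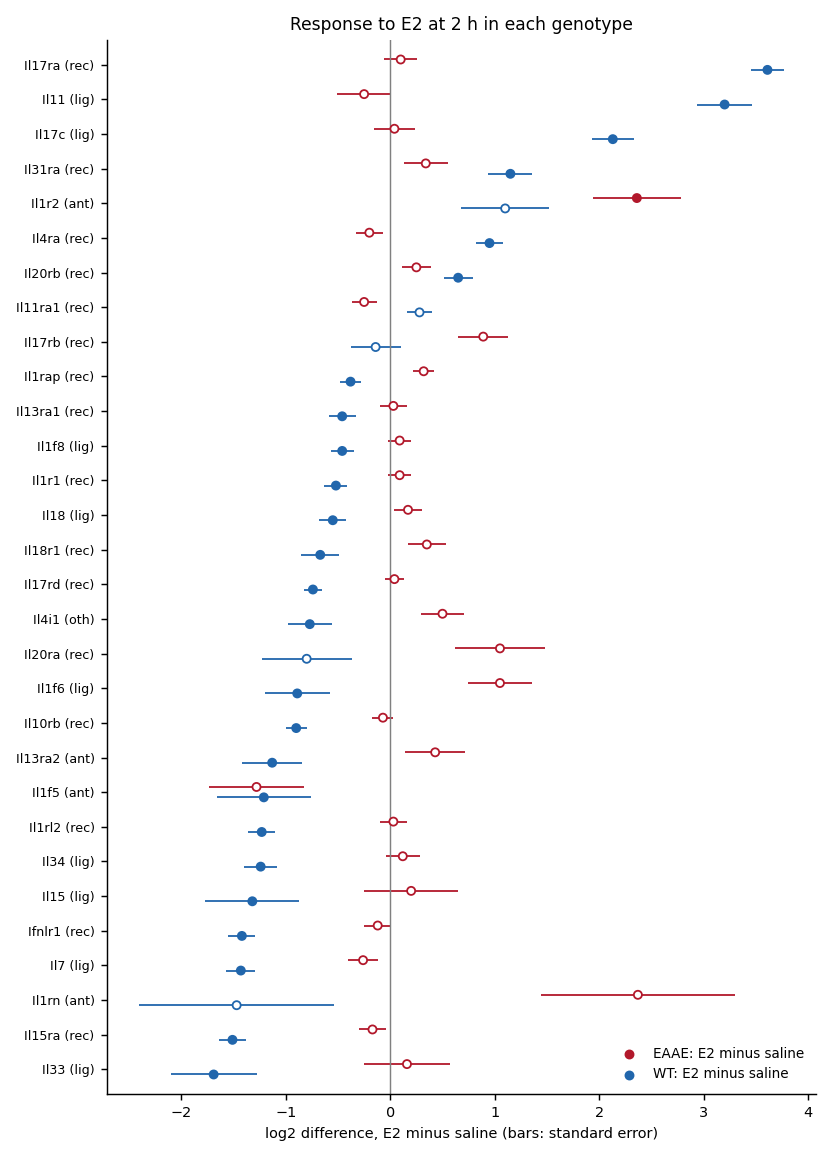
Log2 difference between E2 and saline (x axis) with its standard error for the members past the threshold in WT, in EAAE or for the difference between them, EAAE above WT in each row, with filled points past the threshold and lig, rec, ant and oth in brackets for ligand, receptor chain, antagonist and other. Most WT points lie left of 0 while the EAAE points gather around it, and Il17ra, Il11 and Il17c lie far to the right in WT only; log2 differences of members below background in a group are fitted values.

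Before hormone, the EAAE uterus already differed: 6 members were higher and 22 lower than in WT under saline. All genes passed at 29.5% here (13.7% higher, 15.8% lower), against 48.3% of the members, and the median was -0.45 over the members and -0.02 over all genes. The lower members were mostly receptor chains, 14 lower and 2 higher of 31. Of 21 ligands 4 were lower and 3 higher, and of 5 antagonists 3 were lower and 1 higher. The lower ligands include Il17c, which was below background in both groups. Groups did not overlap for 43 of the 58 members, against 47.2% of all genes. Array position was nearly the same as genotype under saline, and with slide and position in the fit only Il1r2 passed, so position and genotype cannot be told apart for the rest.

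The IL-1 decoy and the IL-1 receptor antagonist were among the lower members. Il1r2 had -7.88, -7.52 and -7.08 in EAAE saline, against -4.07, -4.96 and -4.56 in WT saline, at least 2.2-fold lower (adjusted p = 0.000565). Il1rn had -7.64, -7.33 and -7.56 in EAAE saline, against -3.07, -4.34 and -4.44 in WT saline, at least 3.2-fold lower (adjusted p = 0.0162). Both were well above background on every WT saline array and on no EAAE saline array. Leaving out WT saline 1 ended the Il1rn call (adjusted p = 0.0629). Il18bp, which neutralizes IL-18, had -3.19, -3.53 and -3.71 in EAAE saline, against -2.51, -2.56 and -2.81 in WT saline (log2 -0.85, SE 0.17, adjusted p = 0.00452), and a second probe gave -0.32 (adjusted p = 0.325). The decoy Il13ra2 went the other way, with -3.69, -4.19 and -3.82 in EAAE saline, against -4.64, -4.91 and -4.89 in WT saline (log2 0.91, adjusted p = 0.0399). That call ended without WT saline 1, 2 or 3, WT E2 2 or 3, EAAE saline 1 or 3, or EAAE E2 2 (adjusted p of 0.0514 to 0.111).

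Of the ligands, Il1b had -5.93, -6.22 and -5.69 in EAAE saline, none above background, against -2.77, -4.80 and -4.54 in WT saline, at least 3.0-fold lower (adjusted p = 0.0476). The call did not hold without WT saline 1 (fitted log2 difference -1.27, adjusted p = 0.165), WT saline 3, WT E2 1, 2 or 3, or EAAE saline 1, 2 or 3 (adjusted p of 0.0620 to 0.114). Il4, the type 2 helper cytokine, had -5.54, -5.66 and -5.66 in EAAE saline, none above background, against -4.25, -4.46 and -4.37 in WT saline, at least 2.4-fold lower (adjusted p = 0.0139). Il18 had -1.83, -1.83 and -1.76 in EAAE saline, against -0.95, -1.27 and -0.98 in WT saline (log2 -0.74, SE 0.13, adjusted p = 0.00234). The receptor chain Il18r1 and the brighter Il18bp probe were lower too, while the chain Il18rap was above background on no array. Il17c, counted among the lower ligands, was below background in both groups and gives no fold. It passed the filter only through WT E2, and its fitted difference ran from -0.78 to -0.06 over the settings run.

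Next, 3 ligands were higher in EAAE saline. Il7 had -2.97, -3.17 and -2.93 in EAAE saline, against -3.99, -4.35 and -4.14 in WT saline, 2.20-fold higher (log2 1.14, SE 0.14, adjusted p = 0.000295). Il1f8 had -2.83, -2.65 and -2.91 in EAAE saline, against -3.53, -3.75 and -3.77 in WT saline (log2 0.89, SE 0.11, adjusted p = 0.000226). Il34 had -0.35, -0.09 and -0.39 in EAAE saline, against -0.58, -0.99 and -0.79 in WT saline (log2 0.51, adjusted p = 0.0312), a call that ended when WT saline 2 (adjusted p = 0.106), WT saline 3 (0.0763), EAAE saline 1 (0.0527) or EAAE saline 2 (0.0997) was left out. In all 3 every EAAE mouse lay above every WT mouse.

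Among the receptor chains found on leucocytes, Il2rg, Il10ra and Il2rb were lower in EAAE saline, while Il7r, Il12rb1, Il21r, Il2ra and Il3ra had no call. Il2rg, the common gamma chain, had -3.09, -3.35 and -3.26 in EAAE saline, against -1.86, -2.15 and -2.30 in WT saline (log2 -1.13, SE 0.19, adjusted p = 0.00152). Il10ra, the IL-10 receptor of myeloid and lymphoid cells, had -1.40, -1.78 and -1.97 in EAAE saline, against -0.45, -0.63 and -0.80 in WT saline (log2 -1.09, SE 0.29, adjusted p = 0.0181), and the call ended without WT saline 1 (adjusted p = 0.0637) or EAAE saline 3 (0.0685). Il2rb, the beta chain for IL-2 and IL-15, had -0.29, -0.33 and -0.24 in EAAE saline, against 0.15, 0.52 and 0.46 in WT saline (log2 -0.66, adjusted p = 0.00553). In these 3 the groups did not overlap.

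Il18r1 had -1.77, -1.65 and -1.47 in EAAE saline and averaged -1.63 ± 0.15, against -0.47 ± 0.39 in WT saline (SD, n = 3; log2 -1.16, SE 0.18, adjusted p = 0.00105). Il27ra had -3.39, -3.87 and -3.12 in EAAE saline, against -2.69, -2.86 and -2.81 in WT saline (log2 -0.67, adjusted p = 0.0408), which ended without WT saline 1, 2 or 3, WT E2 1, EAAE saline 1 or 2, or EAAE E2 2 (adjusted p of 0.0526 to 0.126). Il20ra, an IL-20 receptor chain of epithelium, had -5.64, -6.29 and -5.93 in EAAE saline, none above background, against -3.11, -5.15 and -3.76 in WT saline, at least 3.1-fold lower (adjusted p = 0.00706). Its partner Il20rb averaged 1.07 ± 0.21 in EAAE saline and 1.72 ± 0.11 in WT saline (log2 -0.65, adjusted p = 0.00653), while a second Il20rb probe gave 0.39 (adjusted p = 0.0629).

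Il4ra averaged 1.86 ± 0.16 in EAAE saline and 2.87 ± 0.17 in WT saline (log2 -1.01, SE 0.13, adjusted p = 0.000395), and its partner Il13ra1 -2.38 ± 0.07 in EAAE saline and -1.52 ± 0.23 in WT saline (log2 -0.86, SE 0.13, adjusted p = 0.000949). Il13ra1 has a second probe, also lower (-0.75, adjusted p = 0.000915). Il1rl2 averaged -0.36 ± 0.19 in EAAE saline and 0.55 ± 0.12 in WT saline (log2 -0.91, SE 0.13, adjusted p = 0.000755). Il17ra (log2 -0.73, adjusted p = 0.00646, second probe -0.76), Ifnlr1 (-0.57, adjusted p = 0.00736) and the probe standing for Il17rd (-0.67, adjusted p = 0.000469) were lower as well. The 2 probes that the files name Il17rd did not pass, at 0.14 (adjusted p = 0.797) and 0.15 (adjusted p = 0.613). Il6st differed by only -0.30 (adjusted p = 0.0402), with 3.70, 3.51 and 3.45 in EAAE saline and 3.73, 3.86 and 3.98 in WT saline, and its call ended without WT saline 2 or 3, WT E2 1 or 3, EAAE saline 2 or 3, or EAAE E2 2 (adjusted p of 0.0510 to 0.137).

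Il1r1 and Il17re were the chains that were higher. Il1r1 had 2.05, 2.09 and 1.93 in EAAE saline, against 1.32, 1.15 and 1.08 in WT saline (log2 0.84, SE 0.11, adjusted p = 0.000417). The signalling IL-1 receptor was thus higher where its decoy, its antagonist and also its ligand Il1b were lower, at levels below background. Il17re had 2.63, 2.84 and 2.60 in EAAE saline, against 2.37, 2.04 and 2.03 in WT saline (log2 0.54, adjusted p = 0.0131), with a second probe at 1.11 (adjusted p = 0.0305) and the call lost without WT saline 3 (adjusted p = 0.0504). Il4i1 averaged -2.74 ± 0.17 in EAAE saline and -1.76 ± 0.29 in WT saline (log2 -0.98, adjusted p = 0.00651).

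Markers of several leucocyte types were lower in EAAE saline too, and their part in the lower interleukin genes was not tested. Of 5 pan-leucocyte markers 4 were lower (median -0.88; array means -0.49 to -0.11 in EAAE saline and 0.46 to 0.89 in WT saline). Of 10 macrophage markers 5 were lower and 1 higher (median -1.22; 0.07 to 0.39 in EAAE saline and 0.79 to 1.51 in WT saline), and of 12 T and NK cell markers 6 were lower (median -0.68; -3.50 to -3.30 in EAAE saline and -2.71 to -2.62 in WT saline). All 3 tested eosinophil markers were lower (median -2.21), while the eosinophil peroxidase gene Epx was above background on no array. Of 3 tested neutrophil markers 1 was higher and 0 lower (median -1.27). None of the 5 tested mast cell markers (median -0.24) or 4 B cell markers (median -0.35) passed. Of 7 epithelium markers 6 were higher (median 0.81; 3.96 to 4.16 in EAAE saline and 3.04 to 3.25 in WT saline). Without WT saline 1, the array with the highest macrophage markers of its group, 17 members were lower and 5 higher.

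After E2, 15 members were higher and 12 lower in EAAE than in WT, where 57.8% of all genes passed (33% higher, 24.8% lower) and 46.6% of the members. Groups did not overlap for 26 of the 58 members, against 64.2% of all genes. Every EAAE E2 array sat at slide position 4, which held no array of the other groups, so position cannot be told apart from genotype here, nor from E2 within EAAE. With slide and a linear position term in the fit, 13 members passed. Il17ra averaged -1.36 ± 0.27 in EAAE E2 and 2.87 ± 0.13 in WT E2, 18.7-fold lower (log2 -4.23, SE 0.16, adjusted p = 2.11e-08), and Il11 -4.03 ± 0.47 in EAAE E2 and -1.01 ± 0.36 in WT E2, 8.09-fold lower (log2 -3.02, SE 0.26, adjusted p = 4.21e-06). Il4ra was 4.46-fold lower (adjusted p = 5.08e-07) and Il17c at least 1.5-fold lower (adjusted p = 1.37e-06). These 4 kept their calls in every alternative in which they were tested. Il17c, which passed the filter only through WT E2, was not tested with the filter on all 12 arrays. Leucocyte chains lay in WT E2 at -2.04, -2.27 and -2.58 (Il2rg), 0.53, 0.07 and 0.22 (Il2rb), -0.90, -1.05 and -1.22 (Il10ra) and -3.22, -2.86 and -3.51 (Il27ra), with only Il2rg past the threshold after E2. The others lower were Il1r2, Il20rb, Il13ra1, Il18bp, Il2rg, Il31ra, Il4 and Il6st. A second Il20rb probe was higher (0.44, adjusted p = 0.0215), so the Il20rb probes disagree in direction.

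On the higher side, Il7 averaged -3.29 ± 0.01 in EAAE E2 and -5.59 ± 0.29 in WT E2, 4.93-fold higher (log2 2.30, SE 0.14, adjusted p = 5.23e-07). Il7 was above background on 2 of the 3 WT E2 arrays, and its difference was 1.16 with normexp background correction. Il34 averaged -0.16 ± 0.18 in EAAE E2 and -2.03 ± 0.24 in WT E2, 3.66-fold higher (adjusted p = 3.43e-06), and Il33 -0.08 ± 0.78 in EAAE E2 and -1.76 ± 0.48 in WT E2 (log2 1.69, SE 0.41, adjusted p = 0.00473). Il1f6, at -4.16, -3.72 and -3.54 in EAAE E2, was at least 3.2-fold higher (adjusted p = 0.000598), and Il13ra2, at -4.18, -3.49 and -2.75 in EAAE E2, at least 4.2-fold higher (adjusted p = 4.45e-05). The remaining 10 higher members were Il15ra, Il1f8, Il1r1, Il17f, Il1rap, Il10rb, Ifnlr1, Il17rb, Il17re and Il1rl2, at 0.35 to 1.52.

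Markers of other cells differed in the same comparison, and their part in these results was not tested. All 5 adipocyte markers were higher (median 3.77), with array means of 1.20 to 3.32 in EAAE E2 and -2.90 to 0.14 in WT E2. Of 7 epithelium markers 6 were higher (median 0.97; 4.02 to 4.27 in EAAE E2 and 2.86 to 3.04 in WT E2), and of 7 stroma markers 5 were higher (median 0.69; 3.61 to 3.95 in EAAE E2 and 2.92 to 3.03 in WT E2). Of 5 smooth muscle markers 3 were lower (median -0.64; 4.48 to 5.35 in EAAE E2 and 5.19 to 5.48 in WT E2). Of 10 macrophage markers 1 was higher (median 0.04; -0.13 to 1.53 in EAAE E2 and 0.14 to 0.39 in WT E2), and of 12 T and NK cell markers 1 was lower (median -0.07).

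Several of the member calls after E2 ended when 1 array was left out. They were Il13ra1, Il31ra, Il2rg, Il18bp, Il6st and Il4 among the lower, and Il17f, Il17rb and Il1rl2 among the higher. Il17re was at 2.58, 2.91 and 2.52 in EAAE E2 and 2.16, 1.96 and 2.19 in WT E2, and its call held without any single array. Il17f, at -4.63, -4.08 and -5.18 in EAAE E2 and -4.84, -5.69 and -6.09 in WT E2, overlapped between groups (log2 0.90, adjusted p = 0.0303) and was lost without WT E2 2 (0.0884), WT E2 3 (0.118), EAAE E2 1 (0.0630) or EAAE E2 2 (0.116). Il18bp ended without WT E2 1 (adjusted p = 0.110), WT E2 3 (0.0566) or EAAE E2 2 (0.107), Il6st without WT E2 2 (0.0652), and Il31ra without WT E2 1 (0.109), WT E2 2 (0.0733) or EAAE E2 3 (0.112). Il13ra1 ended without any 1 of WT E2 1 to 3, EAAE E2 2 or EAAE E2 3 (0.0635 to 0.117), and Il2rg without WT E2 1, WT E2 2, EAAE E2 2 or EAAE E2 3 (0.0539 to 0.0818). Within the slide that held EAAE E2 1 and WT E2 3, Il2rg differed by 0.04 and Il4 by 0.54, against -0.59 and -0.81 over all arrays.

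After E2, 3 calls were lost without each of 9 or 10 arrays: Il4, Il1rl2 and Il17rb. Il4, at -4.92, -6.09 and -6.27 in EAAE E2 and -4.68, -4.71 and -5.47 in WT E2 (-0.81, adjusted p = 0.0496), kept its call without WT E2 3 (-1.07) or EAAE E2 1 (-1.23, over 1.5 times as large) and gave adjusted p of 0.0633 to 0.177 without each of the other 10 arrays. Il1rl2 (0.35, adjusted p = 0.0484) kept it without EAAE saline 3 or WT E2 1 and gave 0.0536 to 0.175 in the others. Il17rb, at 0.78, 0.30 and 0.87 in WT E2 and 1.16, 0.59 and 0.60 in WT saline (after E2 0.62, adjusted p = 0.0474), kept it without WT saline 1, WT E2 3 or EAAE E2 3 and gave 0.0548 to 0.177 in the others, with a difference of 0.39 without EAAE E2 2.

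**Figure D5:**
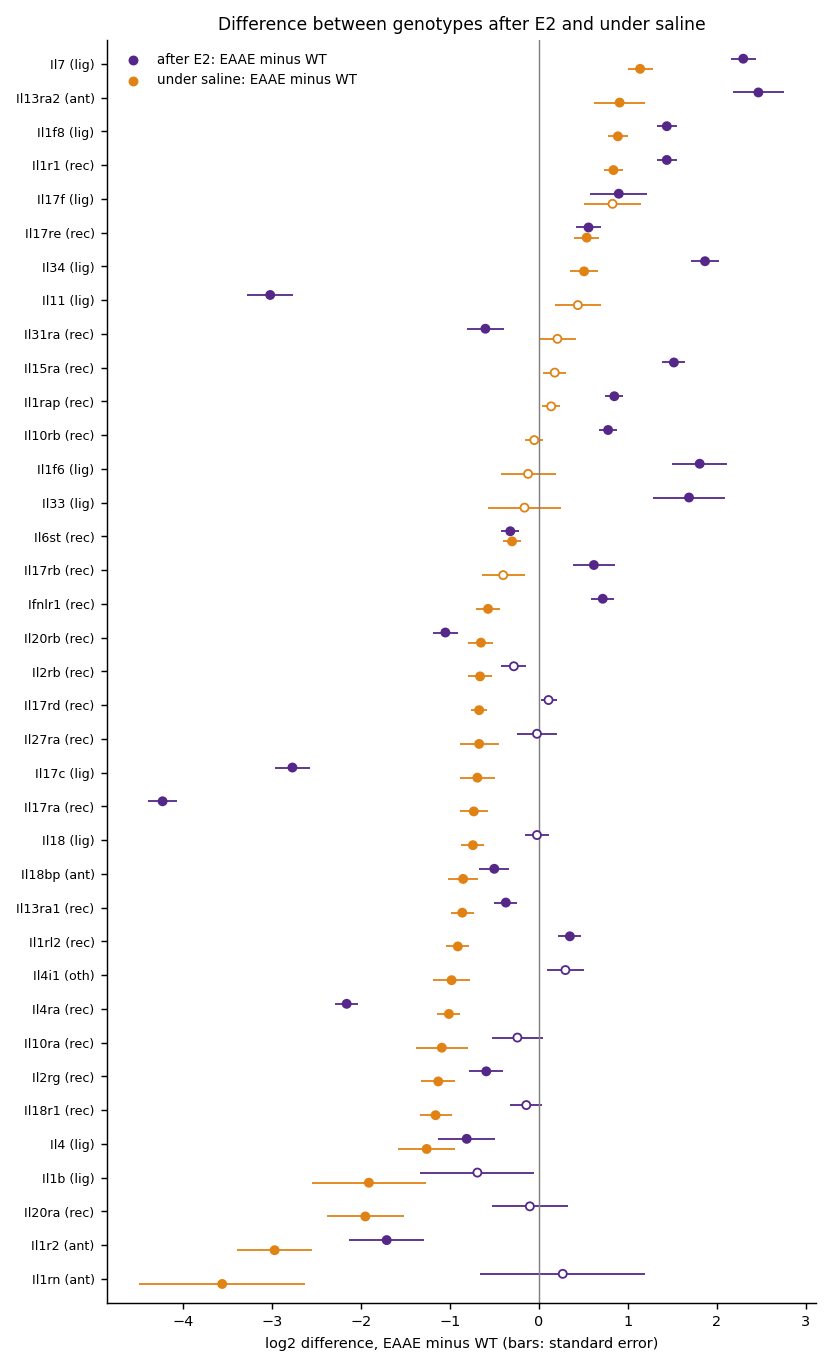
Log2 difference between EAAE and WT (x axis) with its standard error, after E2 (upper point of each row) and under saline (lower point), for the members past the threshold in either, with filled points past the threshold and lig, rec, ant and oth in brackets for ligand, receptor chain, antagonist and other. Under saline more filled points lie left of 0 than right of it, and after E2 Il17ra, Il11, Il17c and Il4ra lie farthest to the left; log2 differences of members below background in a group are fitted values.

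Set beside their receptors, the ligands moved with them in some systems and apart from them in others. For IL-15, Il15 and Il15ra fell in WT, the Il15 call ending without any 1 of 4 arrays, while Il2rb and Il2rg did not pass. For IL-36, Il1f6, Il1f8 and the receptor Il1rl2 fell, with the Il1f6 and Il1f8 calls lost in some alternatives, and Il1f9 was above background on no array. For IL-11, the ligand rose while Il6st and the brighter Il11ra1 probe missed the threshold. For IL-33, the ligand fell while Il1rl1 missed it. For IL-17C, which signals through Il17ra and Il17re, the ligand and Il17ra rose, and the brighter Il17re probe did not pass. For IL-7, the ligand fell, while Il7r gave -0.43 (SE 0.29, adjusted p = 0.251) and Il2rg -0.19 (SE 0.19).

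Neighbouring members on a chromosome did not always move together. Among the tested members, 12 adjacent pairs of 20 genes have probes at most 100 kb apart in mm7. In 3 of these pairs both genes fell in WT, in 7 only 1 of them passed and in 2 neither did. On chromosome 1, Il1r1 and Il1rl2 lie 50.8 kb apart and both fell after E2, yet under saline Il1r1 was higher (0.84) and Il1rl2 lower (-0.91) in EAAE. On chromosome 13, Il31ra rose in WT (1.15) and Il6st, 16.9 kb away, did not pass (0.06). Beside Il4ra on chromosome 7, Il21r (55 kb) gave 0.09.

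Genes that work with the members were read from a list of 21 chain partners and related cytokines, of which 19 were tested. In WT, 4 rose and 5 fell, where 49.4% of all genes passed (19.5% higher, 29.9% lower). Cntfr, the receptor chain for ciliary neurotrophic factor, rose by 1.12 (adjusted p = 3.74e-05) and Csf3, the granulocyte colony-stimulating factor, by 1.42 (adjusted p = 0.00164). Tslp, an epithelial cytokine that shares Il7r, was at least 4.0-fold lower (adjusted p = 8.45e-05). In EAAE, Clcf1, a gp130 cytokine, was the only one to pass (-0.55, adjusted p = 0.0444). Under saline, 5 were higher in EAAE and 3 lower, where 29.5% of all genes passed, led by Cntfr (1.49, adjusted p = 1.97e-05) and Lifr (1.63, adjusted p = 5.05e-05).

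Of 30 interleukin signalling genes, 10 rose and 6 fell in WT, against 19.5% of all genes higher and 29.9% lower there, and in EAAE the smallest adjusted p was 0.0775 (Tyk2, 0.27). Irak3, an inhibitor of signalling below the IL-1 receptors, rose by 2.96 (SE 0.14, adjusted p = 1.95e-07) and Stat5a, a transcription factor of the IL-2 and IL-7 receptors, by 2.37 (SE 0.12, adjusted p = 3.17e-07). Tyk2, a kinase bound to several of these chains, fell by 0.62 (adjusted p = 3.08e-05) and Casp1, which matures IL-1 beta and IL-18, by 0.68 (adjusted p = 0.000416). The response of Irak3 differed between genotypes by -3.08 (adjusted p = 3.93e-06) and that of Stat5a by -2.51 (adjusted p = 5.58e-06).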

How the data were processed

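Uterine transcripts were measured on 12 single-colour Agilent arrays, 3 mice in each of 4 groups. The deposited intensities are linear processed signals, background corrected and spatially detrended but not scaled between arrays, per the file headers (Feature Extraction 9.5 per the submitters' processing notes). Spots marked as non-uniform outliers were left out, spots of a probe were averaged as log2 values, and each array's 75th percentile was subtracted. Of 41174 probes, 29017 were well above background on the 3 arrays of some group. The brightest probe stood for a gene, also for the genes named in the text, which are all members past the threshold plus up to 4 genes of each fixed list per comparison. limma 3.58.1 (R 4.3.3) was fitted to all 12 arrays, with Benjamini-Hochberg adjustment over 19301 genes and a threshold of 0.05; it was tested on simulated data. The number of arrays limits the precision. Each p-value sets a difference between groups against the spread between these mice, which limma estimated over the 4 groups and moderated across genes. Members, lists and tests were chosen with earlier results of these data known. Replicate numbers do not pair the mice. Alternatives covered background correction, scaling, filter, probe choice, slide, position, replicate block, arrays fitted, the series value table and leaving out each array. A gene of a fixed list is not reported here.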

Additional observations from a re-analysis of the deposited data

Results flagged for a closer look

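The E2 response differed between EAAE and WT, tested as an interaction, for 24 members, and each value here is the EAAE minus the WT log2 response. Lower values were found for the ligands Il11 (-3.45) and Il17c (-2.09) and the receptor chains Il17ra (-3.50), Il4ra (-1.15) and Il11ra1 (-0.53). Higher values were found for the ligands Il1f6 (1.93), Il33 (1.84), Il34 (1.36), Il7 (1.17), Il18 (0.72) and Il1f8 (0.55). The receptor chains with higher values were Il20ra (1.85), Il15ra (1.34), Ifnlr1 (1.29), Il1rl2 (1.26), Il17rb (1.02), Il18r1 (1.01), Il10rb (0.84), Il17rd (0.78), Il1rap (0.70) and Il1r1 (0.60). The antagonists were Il1rn (3.83) and Il13ra2 (1.55), and Il4i1 gave 1.27. The 2 probes that the files name Il17rd gave -0.43 and -0.03, neither past the threshold. Second probes of Il1rap (0.39), Il10rb (0.95) and Il17rb (0.48) also missed it, while that of Il15ra passed (1.42). The values of Il17c, Il1f6, Il20ra, Il1rn and Il13ra2 are fitted and rest on groups not above background. Over the settings run they spanned -2.54 to -0.57 for Il17c, 0.75 to 2.23 for Il1f6, 0.79 to 2.42 for Il20ra, 1.71 to 5.02 for Il1rn and 0.64 to 1.90 for Il13ra2.

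For Il1rn, the EAAE response was 2.37 and the WT response -1.47, with EAAE E2 values of -2.73, -7.52 and -5.18, and the adjusted p of 0.0429 became 0.0594 to 0.0940 without any 1 of WT saline 1 to 3, WT E2 1 to 3, EAAE saline 1 to 3 or EAAE E2 3. For Il20ra, the responses were 1.05 in EAAE and -0.80 in WT, and the adjusted p of 0.0358 became 0.0571 to 0.0789 without any 1 of WT saline 1 or 3, WT E2 2 or 3, EAAE saline 2 or 3, or EAAE E2 1 or 2.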

How the results depend on the processing

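With slide and position on the slide in the fit, 16 members passed for E2 in WT, 0 for E2 in EAAE, 1 for EAAE against WT under saline (Il1r2) and 13 after E2, and Il18bp after E2 turned to 0.30 (adjusted p = 0.312). The WT calls this ended were Il13ra1, Il13ra2, Il15, Il18r1, Il1f5, Il1f6, Il1rap, Il20rb, Il33 and Il4i1; the cause was not tested. The 1 call for E2 in EAAE became 0 with normexp, without the filter, with the filter on all 12 arrays, with the replicate block and with only the 6 arrays compared, and 2 with slide as a block. By limma, 9 members had an unadjusted p under the threshold there. Leaving out each array gave 22 to 29 members for E2 in WT, 0 to 1 in EAAE, 19 to 27 for the response difference, 22 to 32 under saline and 20 to 28 after E2. The replicate block gave 24 members in WT, 27 for the difference, 25 under saline and 26 after E2. With each gene's group mean subtracted, same-numbered mice of different groups correlated at -0.282 to 0.275, and other-numbered mice at -0.357 to 0.354. Calls kept in every alternative were 14 of 25 in WT, 17 of 24 for the difference, 1 of 28 under saline and 13 of 27 after E2. For the 27 genes that failed the filter, signal over background sets the limit.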
